A study of Mus musculus with 4 samples.

Results

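Mouse genes named for a protein repeat or motif were examined in the developing retina. They carry leucine-rich repeats (Lrrc), armadillo repeats (Armc), EF-hand calcium-binding domains (Efcab) or calmodulin-binding IQ motifs (Iqc). A gene was a member if its symbol began with Lrrc, Armc or Efcab and a digit, or was Iqc with a single closing letter. Iqcg and Iqcd, and the names Lrrc6, Armc4 and Efcab1, were left out by the same rule. This gave 69 of the 18471 entries of the deposited table: 46 Lrrc, 9 Armc, 10 Efcab and 4 Iqc. They stand for 68 symbols, because Lrrc7 is listed under 2 gene identifiers. All 69 passed the filter on low counts. The table itself starts at a sum of 16 counts over the 4 libraries, so genes of these names below that sum were not analysed here.

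RNA came from retinas of single embryos at embryonic day 19. One group was wild-type (2 libraries). The other was labelled Foxn3KO with the genotype Foxn3-/- (2 libraries), on the allele C57BL/6NJ-Foxn3em1(IMPC)Bay/Mmnc, in which exon 3 is deleted. Foxn3 encodes a forkhead transcription factor. The 4 retinas came from separate embryos. The labels name no agent, no Cre driver and no cell sort, so every retinal cell type contributed to each library. The series title places Foxn3 in a network that controls primary cilia of the retina, and the comparison asks which transcripts differ without that exon.

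These names describe a stretch of protein and say nothing about where the protein works. Leucine-rich and armadillo repeats are folds that bind other proteins, while EF-hands and IQ motifs bind calcium and its sensor calmodulin. Motile cilia and sperm flagella beat by means of dynein arms, radial spokes and a central pair of microtubules, and several Lrrc, Armc, Efcab and Iqc proteins are parts of those structures. Neurons and progenitors of the retina carry a single primary cilium, which is immotile and receives Hedgehog signals, and photoreceptors turn theirs into the outer segment. Other members are ion channel subunits, synaptic adhesion proteins, ubiquitin ligase parts or proteins of mitochondria.

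Total counts were 22543531 to 29360129 per library. For Foxn3, 2421 and 2712 counts were found under the wild-type label, against 4181 and 3219 under the Foxn3KO label (log2 fold change 0.54, SE 0.046). Counts per gene do not resolve exon 3, so they do not check the genotype, and each direction below rests on the labels. All 10 retina markers examined, such as Pax6 and Crx, were present, and their summed level was 3011 to 3166 CPM (the count relative to the library's total, scaled by TMM factors) over the 4 libraries. Of the 10, Six3 was called higher (0.18) and Isl1 lower (-0.23). Wild-type replicate 1 stands apart in 2 ways. It had 83073 counts of Xist and 0 of Ddx3y, against at most 19 and at least 1780 elsewhere. By these sex-linked transcripts it was female and the other libraries male, so sex was not balanced between the groups. The summed level of 7 lens markers in wild-type replicate 1 was 5.28 CPM. It was 59.2 CPM in wild-type replicate 2 and 243 and 241 CPM in the Foxn3KO libraries. Each of the 7 lens markers was called higher in Foxn3KO by edgeR (3 by DESeq2). Of 5 multiciliated cell markers detected, 3 were called higher: Foxj1, Ccno and Deup1. Trp73 and Myb had negative log2 fold changes, -0.28 and -0.0335, and were not called. Foxj1, the regulator of motile cilia genes, stood at 7.70 and 8.32 CPM in wild-type and 177 and 175 CPM in Foxn3KO (21.9-fold), and Ccno at 1.61 and 0.993 against 11.7 and 11.1 CPM (8.83-fold). The list summed to 460 and 469 CPM in wild-type and 632 and 634 CPM in Foxn3KO, most of it in wild-type from Myb, which was not called (450 and 457 against 440 and 446 CPM), while Mcidas and Gmnc were not analysed here. Of 7 pigment epithelium markers 3 were called lower, with sums of 80.6 and 106 CPM in wild-type and 66.4 and 67.5 CPM in Foxn3KO, and of 5 tested choroid plexus and ependyma markers 2 were called higher and 2 lower. Over all tested genes, 12.3% were called higher and 9.66% lower. No marker tested was at 0 in any library. The part of these cells in the results below was not tested.

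Of the 69 members, 27 were higher and 1 was lower in the libraries labelled Foxn3KO at an adjusted p under 0.05 (edgeR quasi-likelihood with Benjamini-Hochberg adjustment over 17300 genes). Of all tested genes 21.9% were called in either direction: 12.3% higher and 9.66% lower, which for the members compares with 39.1% and 1.45%. At 2-fold or beyond, which is 1 on the log2 scale, 17 members were called, all higher, or 24.6%, against 2.86% of all tested genes in that direction. The median log2 fold change was 0.17 over the members and -0.00470 over all tested genes. No library overlap between the groups was seen for 39 members that were higher and 11 that were lower. The same held for 29.9% and 30.5% of all tested genes. Among the 69, 3 members reached the count filter in no wild-type library and so had to differ in order to be tested: Armc3, Lrrc18 and Efcab10. With only the 63 that reached it in both wild-type libraries, 24 were called higher and 1 lower. Of the 63, 14 (22.2%) were called higher at 2-fold or more, and the median over the 63 was 0.13. The shares over all tested genes were not restricted in this way, so they are not like values for the 63.

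**Figure D1:**
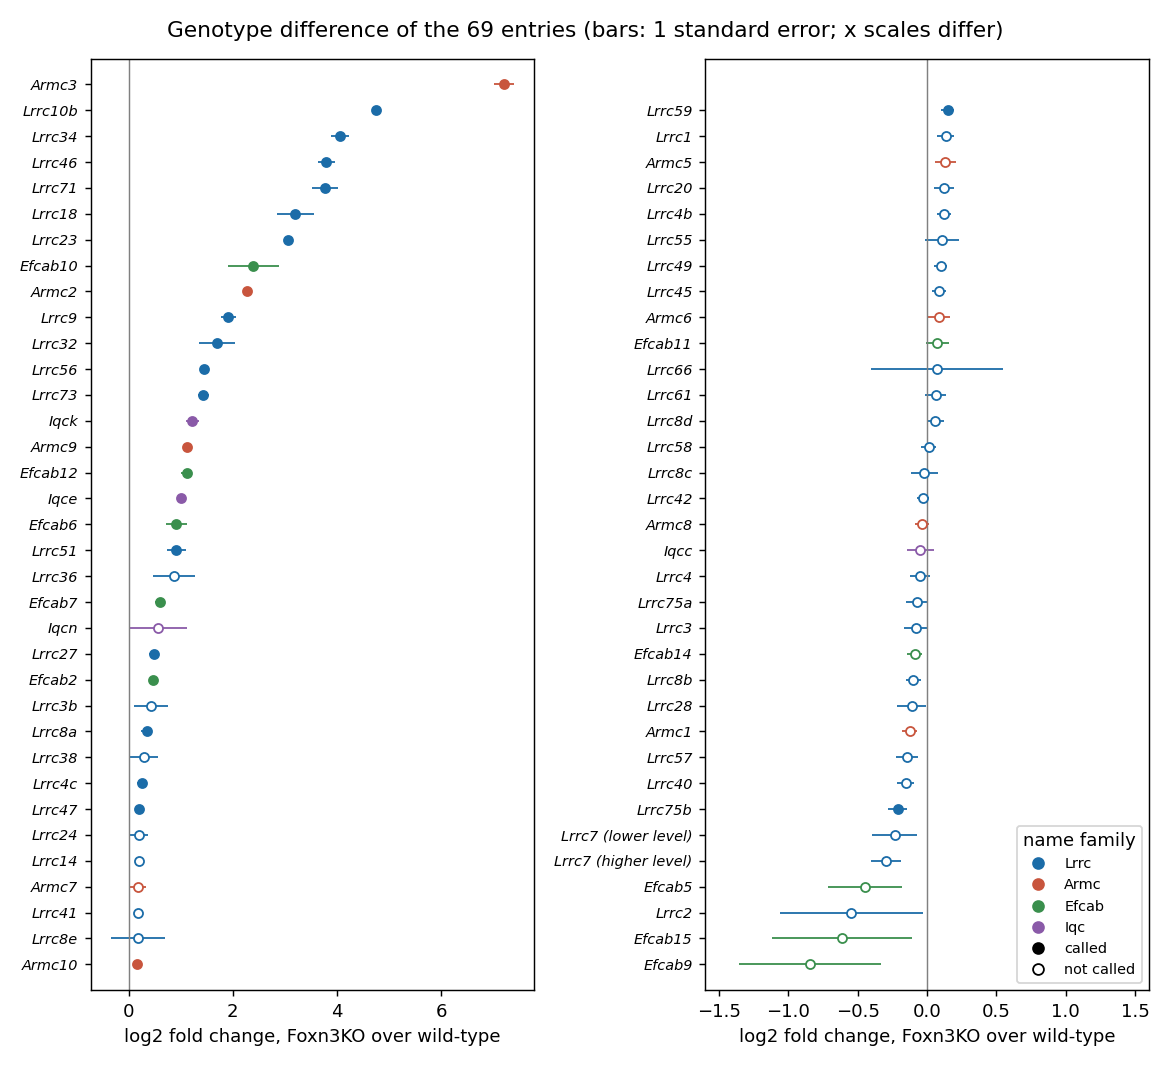
Log2 fold change of Foxn3KO over wild-type for each of the 69 entries, ordered by size. Bars are 1 standard error, derived from the log2 fold change and F statistic of edgeR. The x scale differs between panels, colours mark name families, and filled points are called at an adjusted p under 0.05. The 17 members at 2-fold or more, from Armc3 at 7.21 down to Iqce at 1.01, lead the left panel, and the right panel holds the members from Lrrc59 (0.15) down to Efcab9 (-0.85).

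Without wild-type replicate 1, edgeR called 28 members higher and 1 lower, with the remaining wild-type library assumed to vary like the Foxn3KO libraries. Over all genes tested in that fit, 24.3% were called, 13.4% higher and 10.9% lower. Without wild-type replicate 2 it called 31 members higher and 3 lower, where 28.6% of all genes were called, 15.6% higher and 13.1% lower. The fits without Foxn3KO replicate 1 or 2 called 25 and 22 members higher and 1 and 0 lower. There 13.1% and 13% of all genes were called, 8.39% and 8.34% higher and 4.76% and 4.69% lower. All 17 members at 2-fold or more were called higher whichever of the 4 libraries was left out. The 17 were chosen by their calls in these same libraries, so a higher sum in Foxn3KO was set by that choice. Armc3, Lrrc18 and Efcab10 among them reached the count filter only in Foxn3KO. The 17 summed to 141 and 142 CPM in wild-type replicates 1 and 2, and to 524 and 523 CPM in the Foxn3KO libraries. The lens markers stood at 5.28 and 59.2 CPM in wild-type and 243 and 241 CPM in Foxn3KO. The lens level differed with the genotype too, and its part was not tested. The 41 members that were not called, likewise chosen by that outcome, summed to 1446 and 1433 CPM in wild-type and 1457 and 1458 CPM in Foxn3KO. In RNA from whole tissue, more cells that express a gene and more RNA per cell cannot be told apart.

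**Figure D2:**
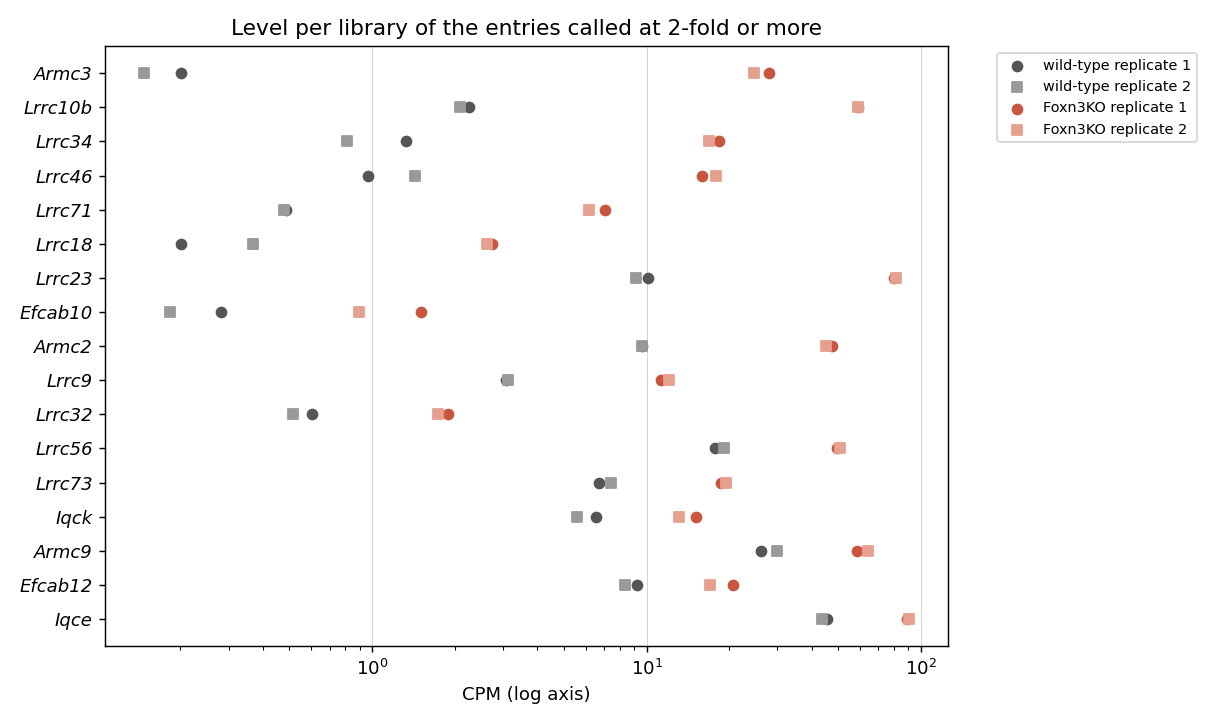
Level in each library, in CPM on a log axis, of the 17 members called higher at 2-fold or more. Dark and light grey points are wild-type and dark and light red points Foxn3KO, with circles for replicate 1 and squares for replicate 2. For each gene both Foxn3KO libraries lie above both wild-type libraries, and for Armc3 the groups stand at 0.174 and 26.3 CPM on average.

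Promoters are shown for 5 of the rising genes: 4 that hold a short sequence known from ciliary genes, and Armc3, the member with the largest fold, which does not. The sequences are those of RefSeq (build GRCm38.p6; the submitters' processing notes name mm39) and run from 250 bases before to 50 after the start site, 5′ to 3′ on the gene's strand. Capitals mark the half-site GTTGCC or its reverse complement, bound by RFX factors that control ciliary genes, and the longer X-box-like form, in which GTNNCC, any 2 bases and GGNNAC follow each other.
Lrrc10b, chr19:10457398-10457697, minus strand: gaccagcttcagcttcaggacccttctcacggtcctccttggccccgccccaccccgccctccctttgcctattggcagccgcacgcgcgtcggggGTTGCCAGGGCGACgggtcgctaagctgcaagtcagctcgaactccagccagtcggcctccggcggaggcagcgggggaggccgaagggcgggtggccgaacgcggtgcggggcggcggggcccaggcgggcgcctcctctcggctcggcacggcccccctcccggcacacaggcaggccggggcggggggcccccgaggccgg
Lrrc23, chr6:124779678-124779977, minus strand: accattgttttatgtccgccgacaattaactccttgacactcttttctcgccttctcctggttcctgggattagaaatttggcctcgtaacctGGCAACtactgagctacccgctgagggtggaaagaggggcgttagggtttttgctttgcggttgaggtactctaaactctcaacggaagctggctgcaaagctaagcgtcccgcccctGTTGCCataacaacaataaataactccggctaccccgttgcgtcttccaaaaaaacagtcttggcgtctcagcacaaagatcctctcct
Lrrc34, chr3:30647769-30648068, minus strand: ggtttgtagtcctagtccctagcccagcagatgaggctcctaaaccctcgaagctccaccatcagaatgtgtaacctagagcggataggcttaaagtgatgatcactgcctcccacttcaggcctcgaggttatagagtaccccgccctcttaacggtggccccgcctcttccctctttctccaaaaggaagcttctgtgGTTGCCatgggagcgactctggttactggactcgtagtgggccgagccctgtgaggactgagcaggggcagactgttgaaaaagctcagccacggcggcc
Armc9, chr1:86154530-86154829, plus strand: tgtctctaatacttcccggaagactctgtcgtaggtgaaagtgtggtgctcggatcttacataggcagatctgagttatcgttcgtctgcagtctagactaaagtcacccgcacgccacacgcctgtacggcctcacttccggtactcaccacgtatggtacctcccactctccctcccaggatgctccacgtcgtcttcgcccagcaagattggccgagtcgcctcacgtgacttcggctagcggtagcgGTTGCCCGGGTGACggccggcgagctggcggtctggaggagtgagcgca
Armc3, chr2:19198868-19199167, plus strand: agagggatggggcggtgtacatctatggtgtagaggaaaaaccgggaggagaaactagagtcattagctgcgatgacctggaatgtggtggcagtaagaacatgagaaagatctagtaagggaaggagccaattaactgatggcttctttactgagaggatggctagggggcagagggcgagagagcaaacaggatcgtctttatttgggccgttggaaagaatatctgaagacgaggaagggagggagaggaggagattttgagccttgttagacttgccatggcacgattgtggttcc

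In the Lrrc10b promoter the X-box-like match began 154 bases before the start site, and in the Armc9 promoter 1 base after it. The Lrrc23 promoter held the half-site 2 times, 157 and 39 bases before the start site, and the Lrrc34 promoter held it 50 bases before. The Armc3 promoter held neither. Of the 12 members at 2-fold or more that have a RefSeq promoter in the table used, 8 (66.7%) held the half-site in at least 1 promoter. That was 6 of 33 members that were not called (18.2%), 14.9% of the 11803 tested genes with a promoter and 14.1% of the 27025 genes in the table. Among the 339 genes of the whole series called higher at 2-fold or more that have a promoter, 38.3% held it. The half-site was chosen after the promoters had been read, so its share is a description. The X-box-like form was found in 2 of those 12 genes, in 1 of the 33 and in 2.80% of the tested genes, and the share was 14.2% among the 339. Neither the stricter X-box form, GTTNCC, any 2 bases and GGNAAC, nor the forkhead form TGTTTAC occurred in any of the 60 promoters of 52 members, where 0.451% and 3.65% of all 32851 promoters hold them. The short form GACGC, which FOXN proteins can bind, was present in 3 of the 12 genes (25.0%), in 16 of the 33 (48.5%) and in 49.4% of the tested genes. All forms were searched on both strands, and the half-site lies inside some of the longer matches. No promoter was matched for 16 members: Armc1, Armc2, Armc5, Efcab2, Efcab6, Efcab7, Iqce, Lrrc14, Lrrc18, Lrrc24, Lrrc32, Lrrc36, Lrrc46, Lrrc61, Lrrc75a and Lrrc75b.

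Of the 8 detected members known from motile cilia and sperm flagella, 7 were called higher and none lower (all tested genes: 12.3% and 9.66%). Their median log2 fold change was 1.85. The exception was Efcab9, a calcium sensor of the sperm CatSper channel, with 17 and 14 counts in wild-type and 11 and 6 in Foxn3KO (log2 fold change -0.85, SE 0.51, edgeR adjusted p = 0.269). Armc12 and Iqch were not analysed here. The same 7 were called by DESeq2. Among the 7, Armc3 reached the count filter in no wild-type library and so had to differ in order to be tested.

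Armc3, an armadillo protein of sperm flagella, had 5 and 4 counts in the wild-type libraries and 816 and 551 in the Foxn3KO libraries. Both Foxn3KO libraries were far above both wild-type libraries. The means were 0.174 ± 0.0385 and 26.3 ± 2.42 CPM (SD, n = 2), which is 7.21 on the log2 scale (SE 0.19, edgeR adjusted p = 7.67e-15). Only 4 of the 17300 tested genes had a larger log2 fold change. Since the wild-type mean rests on 9 counts in all, the size of this fold is uncertain: it ranged from 7.0 to 7.45 on the log2 scale when a library was left out. Armc2, which is needed to assemble the central pair of sperm flagella, had 238 and 261 counts in wild-type and 1379 and 1006 in Foxn3KO. The replicates lay close together, at 9.60 ± 0.00635 and 46.1 ± 1.72 CPM (SD, n = 2), and the groups were 4.81-fold apart (edgeR adjusted p = 1.77e-13).

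Lrrc23, a protein of the radial spoke head, had 252 and 249 counts in wild-type and 2318 and 1815 in Foxn3KO. It was already well detected in wild-type retina at 9.66 ± 0.705 CPM and reached 80.3 ± 1.02 CPM (SD, n = 2) in Foxn3KO, an 8.32-fold difference (edgeR adjusted p = 7.92e-16). Radial spoke genes outside the family moved with it: 10 of 10 tested were called higher, against 12.3% of all tested genes. Their median log2 fold change was 1.52. Cfap206 (4.11) and Rsph1 (2.41) had the smallest p-values among them. Lrrc46, required for the sperm flagellum, had 24 and 39 counts against 463 and 402. This is a rise from 1.20 ± 0.331 to 16.9 ± 1.45 CPM (SD, n = 2), or 13.9-fold (edgeR adjusted p = 8.76e-12).

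Lrrc56, which takes part in dynein arm assembly and is mutated in human ciliary dyskinesia, had 439 and 521 counts in wild-type and 1441 and 1139 in Foxn3KO. It rose 2.72-fold, from 18.4 ± 1.04 to 50.2 ± 0.970 CPM (SD, n = 2, edgeR adjusted p = 2.92e-11). Efcab6, an EF-hand protein found in ciliary doublets, had 56 and 57 counts against 115 and 96, a log2 fold change of 0.91 (SE 0.20, edgeR adjusted p = 0.00305). Efcab2 is a subunit of the nexin-dynein regulatory complex, which links neighbouring doublets. It had 463 and 461 counts in wild-type and 709 and 560 in Foxn3KO, a smaller rise of 0.47 on the log2 scale (SE 0.083, edgeR adjusted p = 0.000445). The other subunits tested were called higher in 6 of 6 cases, against 12.3% of all tested genes. Their median was 2.68, led by Drc1 (5.52) and Drc3 (2.61) by p. The lowest wild-type mean among the 6 was 0.131 CPM, under the filter of 0.387 CPM. That gene was tested only through its level in Foxn3KO.

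Of 5 members tied to the primary cilium and the centrosome, 3 were called higher and none lower (all tested genes: 12.3% and 9.66%). Their median log2 fold change was 0.60. Iqce and Efcab7 form the scaffold that holds the Evc-Evc2 complex at the base of the primary cilium, where it relays Smoothened signals. Iqce had 1132 and 1183 counts in wild-type and 2601 and 2034 in Foxn3KO. Its level rose from 44.6 ± 1.49 to 90.0 ± 1.06 CPM (SD, n = 2), or 2.02-fold (edgeR adjusted p = 1.24e-10). Efcab7 had 290 and 291 counts against 487 and 387, a log2 fold change of 0.60 (SE 0.098, edgeR adjusted p = 0.000213). Of their partners, Evc fell by 0.26 (SE 0.072, edgeR adjusted p = 0.0153), and Evc2 had a value of -0.12 (edgeR adjusted p = 0.313). DESeq2 did not call the fall of Evc.

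Armc9, a Joubert syndrome protein of the ciliary base and tip, had 647 and 812 counts in wild-type and 1702 and 1434 in Foxn3KO. It rose 2.19-fold, from 28.0 ± 2.68 to 61.2 ± 3.95 CPM (SD, n = 2, edgeR adjusted p = 1.67e-09). Of 5 genes of its ciliary module, 4 were called higher and none lower (all tested genes: 12.3% and 9.66%). Their median was 0.36 on the log2 scale. Cspp1 (0.36) had the smallest p-value, and Ccdc66 was not called (-0.12, edgeR adjusted p = 0.247). Lrrc49 is a subunit of the tubulin polyglutamylase complex and was among the members with the highest level. It had 4489 and 4627 counts against 5593 and 4122, a log2 fold change of 0.0986 (SE 0.046, edgeR adjusted p = 0.147). Without wild-type replicate 1 the value was 0.15 and passed (edgeR adjusted p = 0.00141). In that complex, 3 of 5 other genes were called higher, among them Cstpp1 (0.65) and Ttll1 (0.34). Lrrc45, which tethers centrioles to each other, did not pass (0.0851, SE 0.051, edgeR adjusted p = 0.268).

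The largest group of strong risers has no settled role in the lists used. Among these, Lrrc10b had 56 and 57 counts in wild-type and 1716 and 1316 in Foxn3KO. The groups were far apart and the replicates close, at 2.18 ± 0.113 and 58.8 ± 0.119 CPM (SD, n = 2). Its difference of 27.0-fold was the largest among members after Armc3, and it had the smallest p of all members (edgeR adjusted p = 7.50e-17). Lrrc34, described in pluripotent cells, had 33 and 22 counts against 534 and 379, or 16.6-fold (edgeR adjusted p = 5.19e-12). Lrrc71 had 12 and 13 counts against 206 and 138, or 13.7-fold (edgeR adjusted p = 2.47e-09). On the annotation of GENCODE M21, 21.8% of its exon bases overlap Arhgef11 on the opposite strand. The use of strand in counting is not given in the sources used here, so reads of such partners cannot be told apart. Arhgef11 stood at 92.0 CPM in wild-type and 84.0 CPM in Foxn3KO.

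Lower folds were measured for further genes of this kind. Lrrc18, a testis-expressed gene, had 5 and 10 counts in wild-type and 80 and 59 in Foxn3KO, a log2 fold change of 3.20 (SE 0.36). Efcab10 had 7 and 5 counts against 44 and 20, a log2 fold change of 2.39 (SE 0.49, edgeR adjusted p = 0.00182). Both are low in all libraries, and the values ranged from 2.86 to 3.71 for Lrrc18 and from 1.93 to 2.72 for Efcab10 when a library was left out. Lrrc9 rose from 76 and 85 counts to 328 and 271, or 3.76-fold (edgeR adjusted p = 1.20e-08). Lrrc73 had 166 and 201 counts in wild-type and 543 and 436 in Foxn3KO, a difference of 2.70-fold (edgeR adjusted p = 1.13e-08). Iqck had 163 and 152 counts against 440 and 294, and Efcab12 had 229 and 226 against 604 and 382. Their folds were 2.33 and 2.16, with edgeR adjusted p-values of 1.07e-06 and 8.88e-07. For both, replicate 1 of Foxn3KO was the higher library. Reads of Iqck may be shared with Gprc5b and Knop1, which overlap 9.43% and 6.48% of its exon bases on the opposite strand. Gprc5b was not called (0.13) and Knop1 was called higher by 0.22 on the log2 scale.

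Lrrc32 (GARP) docks latent TGF-beta at the surface of regulatory T cells and other cells. It had 15 and 14 counts in wild-type and 55 and 39 in Foxn3KO, at a low level of 0.560 ± 0.0633 and 1.81 ± 0.104 CPM (SD, n = 2). This is 1.70 on the log2 scale (SE 0.34, edgeR adjusted p = 0.00133). Of 7 vessel and blood markers, Pecam1 was called higher, from 0.887 and 0.993 CPM to 1.79 and 2.23 CPM (edgeR adjusted p = 0.0150), and the others, Ptprc and C1qa included, were not called. The list summed to 388 and 444 CPM in wild-type and 403 and 399 CPM in Foxn3KO, most of it from Kdr (359 and 373 against 354 and 347 CPM). None was at 0, and the part of these cells in the rise of Lrrc32 was not tested. Lrrc25 was not analysed here.

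A further 10 of the 69 members were called higher by less than 2-fold, with log2 fold changes of 0.15 to 0.91. Of all tested genes, 12.3% were called higher at any size and 2.86% at 2-fold or more. Besides Efcab2, Efcab6 and Efcab7 these were Lrrc51, Lrrc27, Lrrc8a, Lrrc4c, Lrrc47, Armc10 and Lrrc59. Lrrc51 had 68 and 105 counts in wild-type and 187 and 136 in Foxn3KO (0.91, SE 0.18, edgeR adjusted p = 0.00128), but 49.6% of its exon bases overlap Lamtor1 on the opposite strand. Lamtor1 was not called (0.11, edgeR adjusted p = 0.168). Lrrc27 had 322 and 340 counts against 501 and 415 (0.49, edgeR adjusted p = 0.00110), and it was called whichever library was left out. Lrrc47 had 2054 and 2312 counts against 2809 and 2158 (0.20, edgeR adjusted p = 0.00666), a call that was lost without either Foxn3KO library. Smim1 overlaps 29.7% of its exon bases on the opposite strand.

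Lrrc8 proteins form the volume-regulated anion channel, in which Lrrc8a is the obligatory subunit. Of the 5 subunits, 1 was called higher and none lower (all tested genes: 12.3% and 9.66%). This was Lrrc8a, with 303 and 392 counts in wild-type and 469 and 400 in Foxn3KO (0.35, SE 0.10, edgeR adjusted p = 0.0235). The call was lost in DESeq2 (adjusted p = 0.102) and when wild-type replicate 1 (0.23, edgeR adjusted p = 0.132) or Foxn3KO replicate 2 (0.28, edgeR adjusted p = 0.192) was left out. Of its exon bases, 66.2% are shared with Gm28035 on the same strand, a locus at 0.766 CPM in wild-type and 1.01 CPM in Foxn3KO. The partner subunits Lrrc8b, Lrrc8c and Lrrc8d had values of -0.0995, -0.0205 and 0.0599, with standard errors of 0.053, 0.096 and 0.063. Lrrc8e had 8 to 17 counts per library, with a standard error of 0.52.

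Of 5 entries with synaptic roles, 1 was called higher and none lower (all tested genes: 12.3% and 9.66%). Lrrc4c, the netrin-G1 ligand of axon and synapse contacts, had 470 and 605 counts in wild-type and 693 and 574 in Foxn3KO. Its value of 0.26 passed narrowly (SE 0.088, edgeR adjusted p = 0.0443) and did not pass in DESeq2 (adjusted p = 0.165) or under total count scaling (edgeR adjusted p = 0.0624). Leaving out wild-type replicate 1 gave 0.15 (edgeR adjusted p = 0.263) and leaving out Foxn3KO replicate 2 gave 0.21 (edgeR adjusted p = 0.259). The relatives Lrrc4 (-0.0529) and Lrrc4b (0.12) were not called. Of 3 binding partners of this group, Ptprf rose by 0.28 (edgeR adjusted p = 0.000186), while Ntng1 had a value of 0.26 (adjusted p = 0.0745). Lrrc7, the postsynaptic scaffold densin, was not called under either identifier: 317 and 327 counts against 292 and 227 for ENSMUSG00000104597 (-0.30, edgeR adjusted p = 0.0557), and 124 and 159 against 142 and 97 for ENSMUSG00000028176 (-0.23). The former passed without wild-type replicate 2 (-0.34, edgeR adjusted p = 0.0393) and under total count scaling (edgeR adjusted p = 0.0403). Lrrc7 shares 1302 exon bases with Lrrc40 on the opposite strand. Lrrc38 and Lrrc55, accessory subunits of large-conductance potassium channels, did not pass in any of these tools (0.29 and 0.11, and 0 of the 2 at an unadjusted p under 0.05). Of 3 genes of the channel itself tested none was called by edgeR, DESeq2 or limma-voom, and 0 had an unadjusted p under 0.05.

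Housekeeping members moved little. Armc10, a protein of the mitochondrial outer membrane, had 2245 and 2463 counts in wild-type and 2958 and 2280 in Foxn3KO, a rise of 0.17 (SE 0.048, edgeR adjusted p = 0.0179). Lrrc59, a ribosome-binding protein of the endoplasmic reticulum, rose by 0.15 (SE 0.047, edgeR adjusted p = 0.0303), from 3925 and 4571 to 5391 and 3961 counts. Neither passed in DESeq2 (adjusted p = 0.0600 and 0.0636), and Lrrc59 did not pass under total count scaling (edgeR adjusted p = 0.0581). Both were lost when either Foxn3KO library was left out. Armc1 of mitochondria was not called (-0.13, edgeR adjusted p = 0.124), but was without wild-type replicate 2 (-0.19, edgeR adjusted p = 0.00407). Among ubiquitin ligase parts, Armc8 (-0.0363), Armc5 (0.13) and Lrrc41 (0.18) were not called by edgeR, DESeq2 or limma-voom, and 1 of the 3, Lrrc41, had an unadjusted p under 0.05. Lrrc41 passed without wild-type replicate 2 (0.25, edgeR adjusted p = 0.000199) or Foxn3KO replicate 1 (0.26, edgeR adjusted p = 0.0237). Rad54l overlaps 31.9% of the exon bases of Lrrc41 on the opposite strand. Of the 10 other genes of the CTLH ligase that holds Armc8, only Ranbp9 was called higher (0.19, edgeR adjusted p = 0.0282). The rest were not called, and DESeq2 called 0 of the 10. Of all tested genes, edgeR called 12.3% higher. In the cullin-5 ligase of Lrrc41, 0 of 4 genes were called by edgeR, DESeq2 or limma-voom, and 0 had an unadjusted p under 0.05.

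The single member called lower was Lrrc75b, with 993 and 1219 counts in wild-type and 1118 and 779 in Foxn3KO. The means were 42.4 ± 3.41 and 36.6 ± 2.55 CPM (SD, n = 2), a difference of -0.21 on the log2 scale (SE 0.072, edgeR adjusted p = 0.0421). The groups were near each other, and the call was lost in DESeq2 (adjusted p = 0.153) and without wild-type replicate 2 (-0.12, edgeR adjusted p = 0.219) or Foxn3KO replicate 2 (-0.14, edgeR adjusted p = 0.380).

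Depth decides what the 41 uncalled members can show. For the 27 of them with a mean of at least 10 CPM, log2 fold changes ran from -0.30 to 0.20, with standard errors of 0.044 to 0.11. For the 7 with a mean under 1 CPM (Lrrc36, Iqcn, Lrrc8e, Lrrc66, Lrrc2, Efcab15 and Efcab9), standard errors were 0.41 to 0.55, against a threshold of 1 for a 2-fold change.

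Levels can be compared between genes only per length, for which the FPKM values that the authors deposited were used. The members with the highest mean FPKM were Lrrc42, Lrrc59, Lrrc49, Armc10 and Lrrc4b. Lrrc42 stood at 68.0 and 68.7 FPKM in wild-type and 66.9 and 67.1 FPKM in Foxn3KO, and was not called (-0.03, edgeR adjusted p = 0.687). Lrrc4b was at 26.0 and 26.7 against 29.5 and 27.9 FPKM. The order of the levels differed between the groups. Lrrc23 was the member of rank 25 in wild-type, at 5.83 and 5.27 FPKM, and of rank 3 in Foxn3KO, at 45.8 and 46.6 FPKM. Lrrc10b went from rank 48 (1.07 and 0.995 FPKM) to rank 7 (27.9 FPKM in both libraries). Armc3 was last of the 69 in wild-type, at 0.0709 and 0.0519 FPKM, and of rank 22 in Foxn3KO, at 9.87 and 8.67 FPKM. By contrast Lrrc71, Lrrc18, Efcab10, Lrrc9 and Lrrc32 stayed below 2 FPKM on average in Foxn3KO in spite of their folds.

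**Figure D3:**
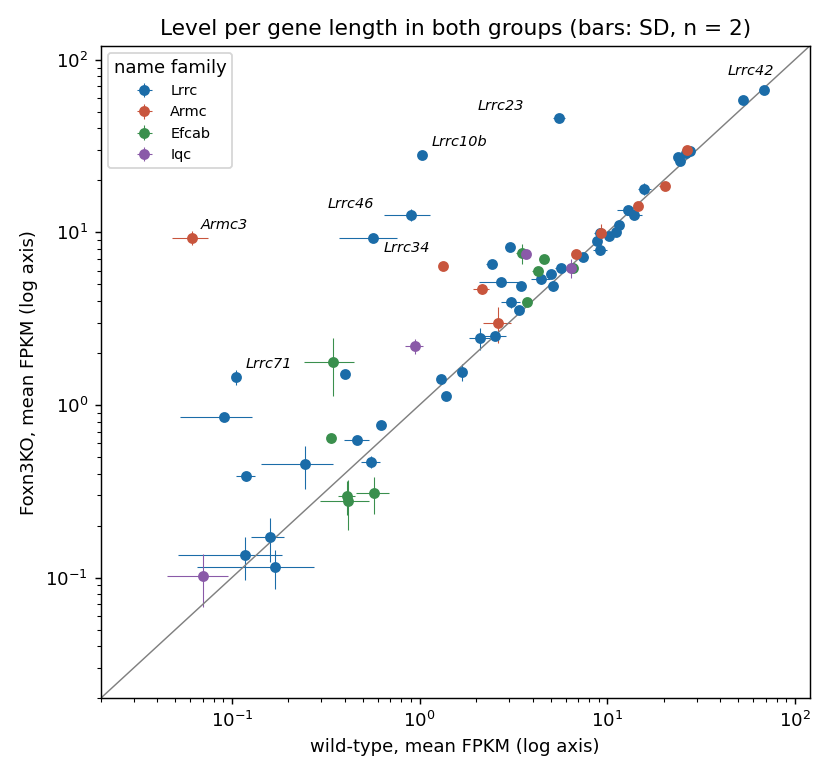
Mean FPKM in wild-type (x axis) and Foxn3KO (y axis), both on log axes, for the 69 entries, coloured by name family, with bars of 1 SD (n = 2). The grey line marks equal levels. Most members with a high level, such as Lrrc42, lie on the line, and Armc3, Lrrc10b, Lrrc34, Lrrc46, Lrrc71 and Lrrc23 lie far above it.

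All 4 name families held risers. By edgeR, 16 of 46 Lrrc genes were called higher and 1 lower, and of 9 Armc genes 4 were called higher and none lower. Of 10 Efcab genes 5 were called higher, of 4 Iqc genes 2, and none lower. Genes of like naming were set beside them. Of 104 tested Ccdc genes, 28.8% were called higher and 7.69% lower, and of 87 Ttc and Wdr genes 26.4% and 5.75%. Over all tested genes these shares were 12.3% and 9.66%. At 2-fold or more and higher, the shares were 24.6% of the 69 members, 17.3% of Ccdc genes and 10.3% of Ttc and Wdr genes. The 22.2% of the 63 members that reached the filter in both wild-type libraries has no like value here. The other families were not restricted in that way. The difference between these shares was not tested.

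**Figure D4:**
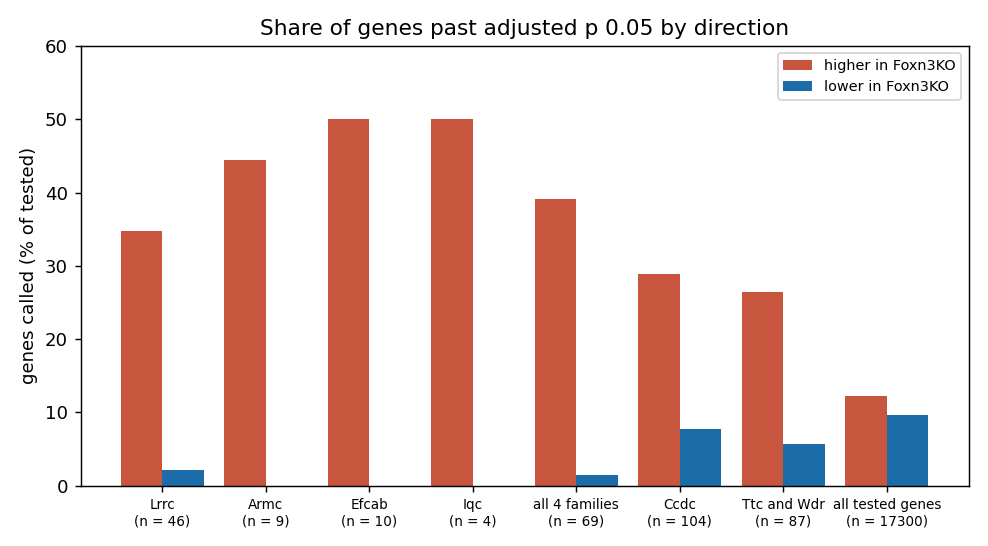
Share of tested genes called at an adjusted p under 0.05 by edgeR, higher (red) or lower (blue) in Foxn3KO, for each name family, the 4 families together, the Ccdc genes, the Ttc and Wdr genes and all tested genes. Bars start at 0 and n is the number of genes tested. The 4 families together stand at 39.1% higher and 1.45% lower, all tested genes at 12.3% and 9.66%.

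In the authors' deposited table, 62 of the 69 members have an adjusted p. At under 0.05 it gives 22 members as higher and 0 as lower, where 16% of the 15248 genes with a value are given as changed, 10.1% higher and 5.92% lower. DESeq2 run here gave the same counts, with 1 member lower at an unadjusted p under 0.05, and called 16 of the 16 members at 2-fold or more that had an adjusted p. Efcab10 had none.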

How the data were processed

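Strand-specific RNA-seq libraries, with adaptors that carry molecular identifiers, were made from total RNA of 4 retinas, per the labels' protocols. The authors deposited whole-number counts per gene, FPKM values, a mean signal, log2 fold changes with a standard error (a score here) and p-values in a single table; per the submitters' processing notes, DESeq2 and build mm39 were used. Aligner, counting tool, use of strand and of the molecular identifiers are not given in the sources used here.

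From 18471 genes (1 repeated identifier dropped), filterByExpr left 17300. Scaling was by TMM. The test was the quasi-likelihood test of edgeR 4.0.16 under R 4.3.3 (genotype as the only term, two-sided, Benjamini-Hochberg over all tested genes, threshold 0.05). CPM are counts over TMM-scaled totals. Standard errors (SE) were derived as the absolute log2 fold change over the square root of the edgeR F statistic. On simulated data with 200 changed genes among 17182 tested, 92.5% were recovered and 9 unchanged genes were called. These values hold for that simulation only, and the rate of wrong calls in the 4 real libraries was not tested. The labels state no pairing by replicate number, and the correlation of replicate differences was -0.00825 over 17300 genes. With 2 libraries per group this value cannot exclude a pairing. Alternatives were other scalings and filters, DESeq2 1.42.0, limma-voom (limma 3.58.1), the earlier edgeR fit, a replicate block and each library left out. A limit of 3 counts is 0.102 to 0.133 CPM and covers counting error only. Members, lists and tests were chosen with earlier results of these data known. Genes named are members called at 2-fold or more or called lower, the 5 of highest FPKM, role list members and up to 2 partners per list by p; other genes named (Lrrc27, Lrrc47, Lrrc51, Ccdc66 and overlapping or neighbouring genes) were chosen after their values were seen. Overlaps use GENCODE M21. Some named items are not reported here. Figures used matplotlib 3.10.9.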

Additional observations from a re-analysis of the deposited data

How the results depend on the processing

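Members called higher numbered 27 and stayed within 1.5 times of that in every alternative: 25 under total count scaling, 24 with at least 10 counts in every library (61 members tested), 22 in DESeq2, 29 with the replicate block and 27 in the others. Leaving out a library gave 22 to 31, a median log2 fold change of 0.14 to 0.22 and 2323 to 5067 genes called over the whole table, with the lone library assumed to vary like the other group. The members' median was 0.15 to 0.17 in the other alternatives. The 1 member called lower became 2 under total count scaling and with the replicate block, 0 in DESeq2 (1 at an unadjusted p under 0.05) and 0 to 3 when a library was left out; the cause was not tested. DESeq2 called 2437 genes over the whole table against 3795, and the cause was not tested. With the replicate block, 4222 genes were called over the whole table, Lrrc41 and Lrrc14 joined the members called higher and Lrrc7 (ENSMUSG00000104597) those called lower. The earlier edgeR fit called Lrrc7 in place of Lrrc75b.

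Among named members, signs changed only for some that were not called: Armc8 (-0.0799 to 0.0146), Lrrc8e (-0.33 to 0.88), Lrrc8c (-0.15 to 0.13) and Lrrc4 (-0.11 to 0.0149), over the fits that leave out a library. The changes of sign came without wild-type replicate 1 for Armc8, without wild-type replicate 2 for the other 3, and without Foxn3KO replicate 2 for Lrrc8e (-0.11) and Lrrc8c (0.0162). Without Foxn3KO replicate 1 or 2, 2328 and 2323 genes were called over the whole table. Leaving out wild-type replicate 1 added Lrrc1, Lrrc36 and Lrrc49 to the members called higher, and leaving out wild-type replicate 2 added Lrrc14, Lrrc41, Lrrc4b and Lrrc61 and called Armc1, Lrrc40 and Lrrc7 (ENSMUSG00000104597) lower. Leaving out Foxn3KO replicate 1 added Lrrc41, and total count scaling called Lrrc7 (ENSMUSG00000104597) lower. Over the named members, 474 of the recomputed values kept direction and side of the threshold, 18 fell below it, 10 passed it and 6 changed sign. Every member call lost in a fit that gave it an adjusted p belonged to Lrrc8a, Lrrc4c, Lrrc47, Armc10, Lrrc59 or Lrrc75b. Depth limits members under 1 CPM.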

Other observations

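Several members share a start region with a neighbour on the opposite strand. On the annotation of GENCODE M21, 14 such pairs have start sites within 1000 bases of each other, and the neighbour's level was read from the same libraries. Lrrc46 starts 153 bases from Mrpl10, a gene of the mitochondrial ribosome. Lrrc46 was 13.9-fold higher in Foxn3KO, while Mrpl10 had 1156 and 1245 counts in wild-type and 1302 and 1084 in Foxn3KO (log2 fold change 0.00973, SE 0.062, edgeR adjusted p = 0.937). Armc10 starts 179 bases from Fbxl13, a gene of the nexin-dynein regulatory complex, and here the member was the one that moved little. Fbxl13 had 16 and 15 counts against 78 and 41 (1.93, SE 0.33, edgeR adjusted p = 0.000370), and Armc10 rose by 0.17. Lrrc56 rose by 1.44 and its neighbour Hras, 152 bases away, by 0.25 (SE 0.065, edgeR adjusted p = 0.010). Lrrc51 (0.91) lies 216 bases from Numa1, which was not called (-0.0741, edgeR adjusted p = 0.221). Neighbours called lower were Recql4 (-0.28), Srsf11 (-0.13) and Ift25 (-0.29), with edgeR adjusted p-values of 0.0140, 0.0436 and 0.0486. They lie beside Lrrc14, Lrrc40 and Lrrc42, which were not called. The difference between the genes of a pair was not tested. These pairs were picked after their values were seen, and the counting could mix reads of genes that overlap.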
